A study of Bos taurus with 8 samples.

Results

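The glycolytic enzymes considered here were 10 genes that carry out the steps from phosphofructokinase to lactate dehydrogenase: *PFKM*, *ALDOA*, *TPI1*, *PGK1*, *PGAM1*, *PGAM2*, *ENO1*, *ENO3*, *LDHA*, and *LDHB*. They were chosen by name and not by a threshold on their values, but with earlier results of these data known. A probe of the array was assigned to a gene through the RefSeq accession that the array lists for it. Of these 10 genes, 8 were measured, with 1 probe each, among 7788 named genes on the array. *PFKM* and *ENO1* were not matched to a probe and were not analysed here. The muscle forms in the set are *PFKM*, *PGAM2*, and *ENO3*, of which *PGAM2* and *ENO3* were measured. The other 6 measured genes are called general forms below, since they are expressed in most cell types.

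Glycolysis splits glucose into pyruvate, and lactate dehydrogenase can turn that pyruvate into lactate, which lets a cell go on making ATP with little oxygen. Several steps are carried out in skeletal muscle by an isoform of its own: phosphofructokinase M, the M subunit of phosphoglycerate mutase (*PGAM2*), and beta-enolase (*ENO3*). When myoblasts stop dividing and fuse into myotubes, the general subunits of phosphoglycerate mutase and enolase (*PGAM1* and *ENO1*) are known to give way to the muscle subunits, so that *PGAM2* and *ENO3* are commonly read as late products of the muscle program.

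The transcripts came from primary cultures of muscle cells isolated from *m. semitendinosus* of 15-month-old bulls of 3 cattle breeds, namely Limousin (LIM) and Hereford (HER), which are beef breeds, and Holstein-Friesian (HF), a dairy breed, with 4 bulls per breed. The cells were taken while proliferating, at 80% confluence, and no treatment differed between the breeds. RNA of a beef breed and RNA of HF were hybridized together on each of 8 two-colour arrays. On 4 arrays, HER carried Cy3 and HF carried Cy5, and on the other 4, LIM carried Cy5 and HF carried Cy3. The question addressed was how the expression profile of muscle cells of the beef breeds differs from that of the dairy breed. Breed, dye orientation, and slide cannot be told apart within a comparison. Both comparisons use HF cells as the reference, and which HF bull was placed on which array is not given in the sources used here, so values of LIM and HER are given side by side. The p-values measure the spread between arrays only. With 4 HF bulls for 8 arrays, HF animals must recur, so p-values over all 8 arrays treat as independent arrays that are not fully so.

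All values below are log2 ratios of the beef breed over HF, so that 1 stands for a doubling, and errors are SD over 4 arrays unless stated. In a channel, 68.8% to 85.2% of probes stood well above their background, no spot was saturated, and the correlation between arrays over all probes ranged from 0.083 to 0.78. Each of the 8 measured enzymes was well above background in all 16 channels and passed the filter on dim probes. The myoblast genes *MYF5*, *MYOD1*, and *DES* were well above background in all 16 channels too. *PAX7*, the marker of satellite cells, was not matched to a probe.

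The measured muscle forms were both higher in cells of the beef breeds, while most general forms did not pass the test. *PGAM2* was 7.13-fold higher in LIM and 6.50-fold higher in HER than in HF. *ENO3* was 2.96-fold higher in LIM and 2.36-fold higher in HER. *ALDOA*, the aldolase of muscle and of most other tissues, was 1.59-fold lower in LIM and 1.36-fold lower in HER. By limma's Benjamini-Hochberg adjusted p of at most 0.05, 3 of the 8 measured genes were thus called in LIM, where 35.9% of all 17622 tested probes were called, and the same 3 were called in HER, where 25.4% of the probes were called. In the mean of both beef breeds, the 3 genes were called again, against 47.6% of the probes. The share of called genes among these enzymes was therefore near that of the array as a whole, and the sizes of the differences are what follows.

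**Figure D1:**
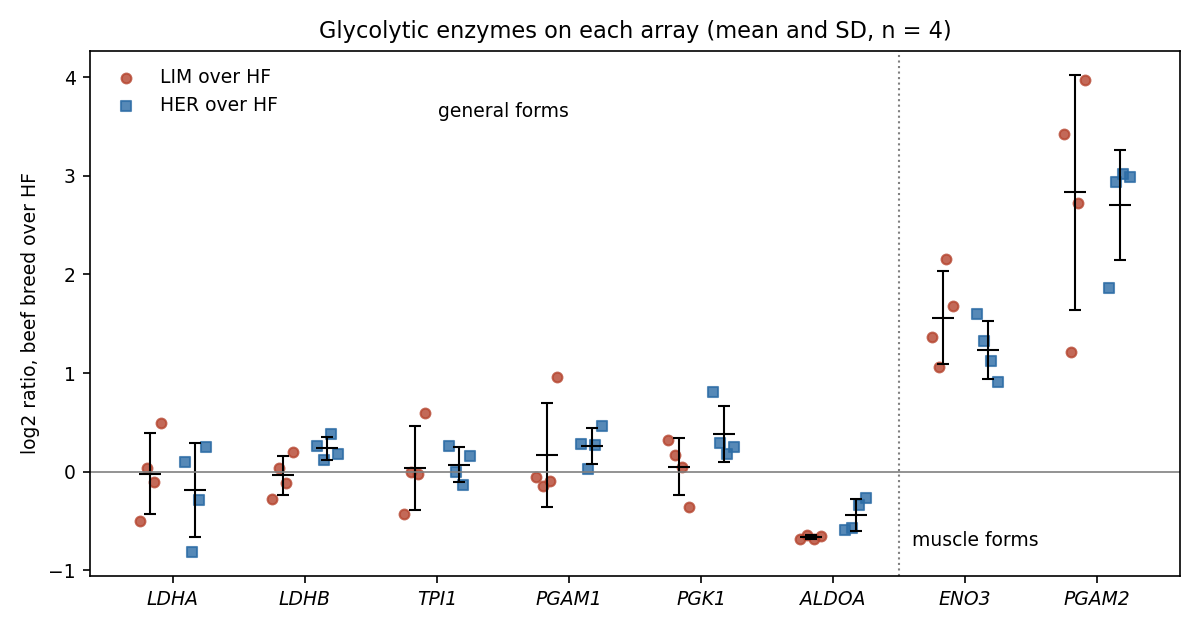
Log2 ratio of the beef breed over HF (vertical axis) for the 8 measured enzymes (horizontal axis), with LIM arrays as red circles, HER arrays as blue squares, and the mean and SD of 4 arrays as black bars. The 16 values of the muscle forms *ENO3* and *PGAM2* lie between 0.91 and 3.97, and the 48 values of the general forms between -0.81 and 0.96.

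*ENO3* encodes beta-enolase, which converts 2-phosphoglycerate into phosphoenolpyruvate in muscle. On the arrays of LIM, its log2 ratio over HF was 1.37, 1.06, 2.15, and 1.68 in replicates 1 to 4. On the arrays of HER, it was 1.60, 1.32, 1.12, and 0.91. All 8 arrays were above 0, and the ranges of both breeds overlapped widely. The mean was 1.56 ± 0.47 in LIM (limma, adjusted p = 0.000884) and 1.24 ± 0.29 in HER (adjusted p = 0.0049). The processed signal of the LIM channel, from 5907 to 13929, did not overlap that of HF on the same arrays, from 2314 to 4359. The signal of the HER channel, from 2926 to 6961, did not overlap that of HF, from 1343 to 2715, either. With normexp background correction and loess in place of the scanner's ratio, the mean in HER was 0.88 (limma, adjusted p = 0.177), and 0 of all probes were then called in HER. These are cultures measured in bulk, so more cells that express a gene cannot be told apart from more RNA per cell. Among all tested probes, 28.6% had the same sign on all 8 arrays.

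*PGAM2* encodes the muscle subunit of phosphoglycerate mutase, which converts 3-phosphoglycerate into 2-phosphoglycerate. On the arrays of LIM, its log2 ratio was 3.42, 1.22, 2.73, and 3.97 in replicates 1 to 4. On the arrays of HER, it was 1.86, 2.94, 3.02, and 2.98. Replicate 2 of LIM and replicate 1 of HER gave the smallest ratios, and every array was still above 1. The mean was 2.83 ± 1.19 in LIM (limma, adjusted p = 0.00155) and 2.70 ± 0.56 in HER (adjusted p = 0.0049). With normexp background correction and loess, the mean in HER was 0.94 (adjusted p = 0.325). In HF, the processed signal was low, from 66.2 to 153 on the arrays of HER and from 104 to 424 on those of LIM, yet well above background on each. The HER channel, from 318 to 1169, did not overlap HF. The LIM channel ranged from 325 to 6625 and overlapped HF across arrays, since replicate 4 was the brightest in both channels. Within each array the LIM channel was the brighter one.

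**Figure D2:**
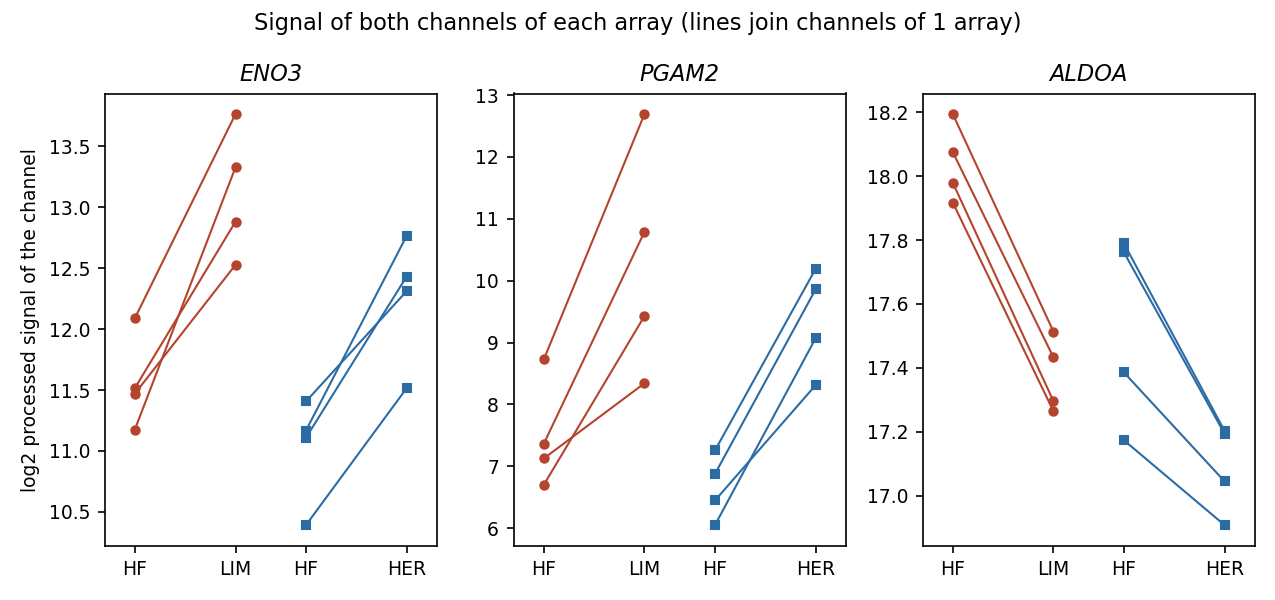
Log2 of the processed signal (vertical axes, which differ between panels and do not start at 0) of the HF and beef breed channels for *ENO3*, *PGAM2*, and *ALDOA*, with lines joining the channels of 1 array, red for LIM and blue for HER. On all 8 arrays the line rises for *ENO3* and *PGAM2* and falls for *ALDOA*.

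The isoforms of phosphoglycerate mutase could be compared on the same arrays. *PGAM1*, the general subunit, had log2 ratios of -0.056, -0.14, -0.090, and 0.96 in replicates 1 to 4 of LIM. In HER, it had 0.28, 0.027, 0.27, and 0.47. Replicate 4 of LIM stood far above the other LIM arrays, and the other 7 arrays lay between -0.14 and 0.47. The means, 0.17 ± 0.53 in LIM and 0.26 ± 0.18 in HER, did not pass the test (limma, adjusted p = 0.506 and 0.329). The muscle form minus the general form was 3.48, 1.36, 2.82, and 3.00 in LIM and 1.58, 2.91, 2.75, and 2.51 in HER. The difference was above 0 on 8 of 8 arrays, with a mean of 2.55 ± 0.72 (SD, n = 8 arrays). An exact sign-flip permutation test gave a two-sided p = 0.0078, the smallest that 8 arrays allow, and 0.016 after adjustment for 2 isoform pairs. The test treats the 8 arrays as independent, although the study had 4 HF bulls, so HF animals must recur among the 8 arrays. Within 4 arrays the smallest p is 0.125, and both LIM (2.66 ± 0.92) and HER (2.44 ± 0.59) reached it in that exact test. In HER, this difference was 1.01 with normexp background correction and loess and 1.72 when marked local backgrounds were replaced as well.

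The matching comparison for enolase could not be made because *ENO1* was not analysed here. Set against the mean of the 6 general forms on the same array instead, which was chosen once *ENO1* was found without a probe and is given with no test, *ENO3* was higher on 8 of 8 arrays. The difference was 1.64 ± 0.49 in LIM and 1.18 ± 0.34 in HER, from 0.73 on replicate 4 of HER to 2.31 on replicate 3 of LIM. *PGAM2* exceeded the same mean by 2.91 ± 1.14 in LIM and by 2.65 ± 0.66 in HER. The mean of the general forms itself lay between -0.27 and 0.21 on the 8 arrays. *ENO2*, the enolase of neurons, had a mean of -0.86 ± 0.71 in LIM and -0.47 ± 1.02 in HER and did not pass the test (limma, adjusted p = 0.112 and 0.387).

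The ratio of *PGAM2* was larger than that of *ENO3* on 8 of 8 arrays. The difference ranged from 0.16 on replicate 2 of LIM to 2.29 on replicate 4 of LIM, with means of 1.27 ± 1.06 in LIM and 1.46 ± 0.82 in HER. Its size depended on the background step. With normexp background correction and loess, *PGAM2* and *ENO3* had means of 0.94 and 0.88 in HER, close to each other, and of 2.03 and 1.56 in LIM. The arrays did not keep one order for these genes. Replicate 1 of HER had the highest HER ratio for *ENO3* and the lowest for *PGAM2*, and replicate 4 of HER had the lowest for *ENO3*. Replicate 2 of LIM was the lowest LIM array for both.

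**Figure D3:**
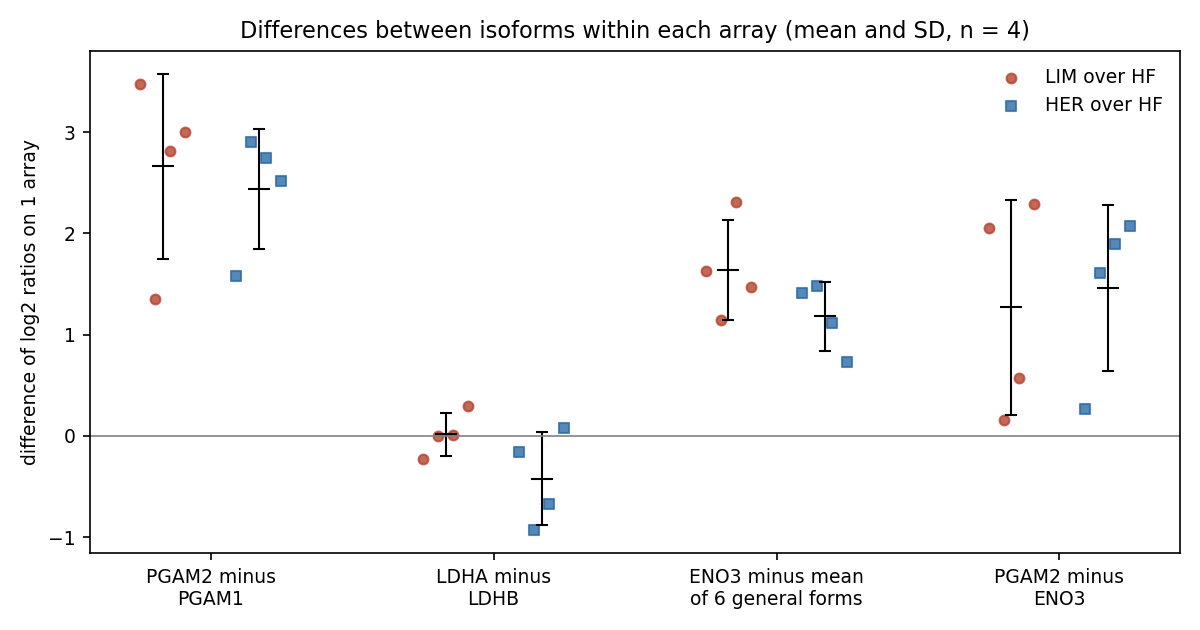
Difference between log2 ratios on the same array (vertical axis) for *PGAM2* minus *PGAM1*, *LDHA* minus *LDHB*, *ENO3* minus the mean of the 6 general forms, and *PGAM2* minus *ENO3*, with LIM as red circles, HER as blue squares, and the mean and SD of 4 arrays in black. *LDHA* minus *LDHB* lies on both sides of 0, from -0.93 to 0.29, and the other differences are above 0 on all 8 arrays.

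*LDHA* encodes the lactate dehydrogenase subunit that prevails in fast skeletal muscle, and *LDHB* the one that prevails in heart. For *LDHA*, the log2 ratios were -0.50, 0.038, -0.11, and 0.49 in LIM and 0.10, -0.81, -0.29, and 0.25 in HER. For *LDHB*, they were -0.27, 0.038, -0.12, and 0.20 in LIM and 0.26, 0.12, 0.39, and 0.18 in HER. *LDHA* was on both sides of 0 in both breeds, whereas *LDHB* was above 0 on all 4 arrays of HER and on 2 of 4 of LIM. Neither passed limma's test, with adjusted p = 0.95 in LIM and 0.53 in HER for *LDHA* and 0.812 and 0.141 for *LDHB*. *LDHA* minus *LDHB* averaged 0.018 ± 0.21 in LIM and -0.42 ± 0.46 in HER. Over the 8 arrays, it was -0.20 ± 0.41 (SD, n = 8), above 0 on 4 of 8, with p = 0.25 before and after adjustment for 2 pairs (exact sign-flip permutation test, two-sided). The 95% interval of this mean, from -0.54 to 0.14, leaves room for a shift between the subunits within those bounds.

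*ALDOA* encodes aldolase A, which splits fructose 1,6-bisphosphate and is the main aldolase of muscle and many other cells. Its log2 ratios in LIM were -0.68, -0.64, -0.68, and -0.65. In HER, they were -0.59, -0.57, -0.34, and -0.27. The LIM arrays lay close together, and all 8 arrays were below 0. The mean was -0.66 ± 0.020 in LIM (limma, adjusted p = 0.00177) and -0.44 ± 0.16 in HER (adjusted p = 0.0162). The HER call did not hold without replicate 1 (-0.39, adjusted p = 0.0699) or without replicate 2 (-0.40, adjusted p = 0.0773). With normexp background correction and loess, neither mean passed (-0.50 in LIM, adjusted p = 0.213, and -1.01 in HER, adjusted p = 0.2). The signal of the LIM channel, from 157423 to 187105, did not overlap that of HF, from 247466 to 299910, whereas in HER the channels overlapped across arrays. *ALDOA* thus differed from HF in the opposite direction to *ENO3* and *PGAM2*. *ALDOC*, the aldolase of brain, had means of 0.35 ± 0.87 and 0.37 ± 0.39 and did not pass the test.

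*PGK1* encodes phosphoglycerate kinase, the first step of glycolysis that yields ATP, and *TPI1* encodes triosephosphate isomerase, which interconverts the products of aldolase. For *PGK1*, the log2 ratios were 0.33, 0.17, 0.053, and -0.35 in LIM and 0.81, 0.29, 0.18, and 0.25 in HER. It was above 0 on 7 of 8 arrays, with replicate 4 of LIM the exception. The mean in HER, 0.38 ± 0.28, did not pass the adjusted threshold (limma, adjusted p = 0.0893), but it did pass an unadjusted limma p up to 0.05 with a change of 1.3-fold or more. With those limits, 4 of the 8 measured genes were called in HER, where 34.8% of all probes were called, and 3 of 8 in LIM, where 41.6% were called. With the methods' t-test at the same limits, which is the rule of the study, *PGK1* was not called, and *ENO3*, *PGAM2*, and *ALDOA* were the 3 genes called in either breed, against 28.8% of all probes in LIM and 27.4% in HER. In LIM, the mean of *PGK1* was 0.050 ± 0.29 (adjusted p = 0.814). Without replicate 4 of LIM, the mean of both beef breeds passed (0.28, adjusted p = 0.0378), and with all arrays it did not (0.22, adjusted p = 0.119). With normexp background correction and loess, the mean of *PGK1* was -0.074 in HER and 0.045 over both breeds. For *TPI1*, the log2 ratios were -0.43, -0.0044, -0.024, and 0.60 in LIM and 0.26, -0.0052, -0.14, and 0.16 in HER. Its means, 0.036 ± 0.42 in LIM and 0.070 ± 0.18 in HER, did not pass the test (adjusted p = 0.881 and 0.774), and the 95% interval for the mean of both breeds ran from -0.21 to 0.31.

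Several general forms ordered the arrays of LIM in a similar way. *LDHA*, *LDHB*, *PGAM1*, and *TPI1* each had their highest LIM ratio on replicate 4, and *LDHA*, *LDHB*, and *TPI1* had their lowest on replicate 1. *PGK1* ran the other way, with its highest LIM ratio on replicate 1 and its lowest on replicate 4. The mean of the 6 general forms was -0.27 on replicate 1 and 0.21 on replicate 4. Replicate 4 also gave the highest LIM ratio of *PGAM2*.

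For none of the 8 measured enzymes did the difference between the LIM and HER comparisons pass the test. With the test of the difference itself, 0 of 8 were called at an adjusted p of at most 0.05 and 0 of 8 at an unadjusted p under 0.05 in limma. Of all tested probes, 41 or 0.233% were called after adjustment and 14.7% at an unadjusted p under 0.05. The LIM ratio minus the HER ratio was 0.33 for *ENO3*, with a 95% interval from -0.27 to 0.93, and 0.13 for *PGAM2*, from -1.17 to 1.43. It was -0.22 for *ALDOA*, from -0.54 to 0.092, and -0.33 for *PGK1*, from -0.81 to 0.15. These intervals do not show that the breeds were alike.

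*GAPDH*, the glyceraldehyde-3-phosphate dehydrogenase of glycolysis and a common reference gene, sits between *TPI1* and *PGK1* in the pathway. Its brightest probe had log2 ratios of 0.13, 0.13, 0.32, and 0.12 in LIM and 0.47, 0.32, 0.28, and 0.033 in HER. All were above 0, and the mean of both beef breeds, 0.22, passed the test (limma, adjusted p = 0.0354), while the means of LIM, 0.17 ± 0.096, and of HER, 0.28 ± 0.18, did not on their own (adjusted p = 0.224 and 0.086). Of the other 2 probes of *GAPDH*, one passed (0.32, adjusted p = 0.0185) and one did not (0.13, adjusted p = 0.295). The call was lost when replicate 1, 2, or 3 of LIM or replicate 1, 2, or 3 of HER was left out, with adjusted p between 0.0612 and 0.0978. With normexp background correction and loess, the mean of both breeds was 0.030 (adjusted p = 0.923) and that of HER was -0.28.

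The median of the 8 enzymes was 0.043 in LIM and 0.25 in HER, beside -0.0098 and -0.055 over all tested probes. The HER median depended on the background step. With normexp background correction and loess, the HER means of all measured general forms were below 0, from -1.01 for *ALDOA* to -0.054 for *LDHB*. Those of *ENO3* and *PGAM2* stayed above 0, at 0.88 and 0.94. Of the wider set, 81 other genes of energy metabolism in 6 lists, 54 had a probe and 50 were tested. In LIM, 11 were higher and 6 lower, or 34% called against 35.9% of all probes. In HER, 8 were higher and 5 lower, or 26% against 25.4%. In the mean of both beef breeds, 15 were higher and 7 lower, or 44% against 47.6%. Of these, *AMPD1*, *FBP1*, and *PCK1* passed the filter on dim probes almost wholly through the channels of 1 side of a comparison, so their calls carry no more than the channel counts given below. The genes named from here on were those with the largest mean among the called genes with 1 sign on all 8 arrays. For genes named by this rule, a call and 1 sign on 8 of 8 arrays follow from the choice. Any others were added after their values were seen.

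**Figure D4:**
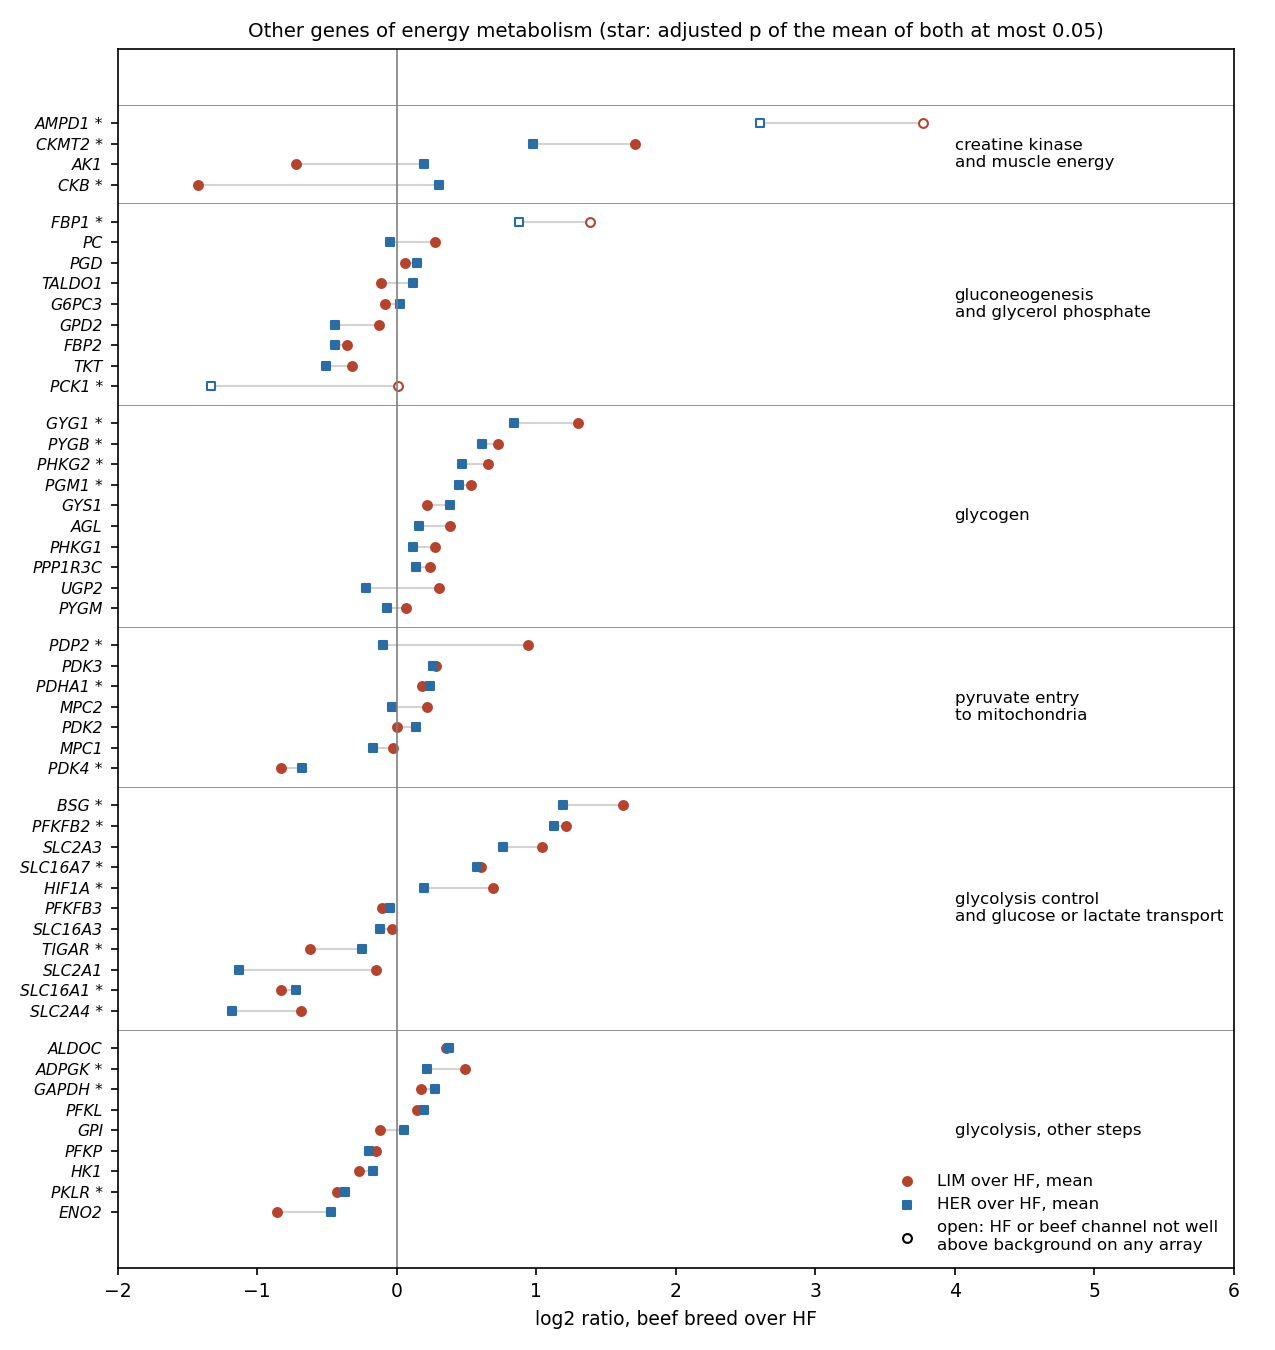
Mean log2 ratio over HF (horizontal axis) in LIM (red circles) and HER (blue squares) for the 50 tested genes of 6 lists of energy metabolism (rows, grouped by list), each mean over 4 arrays. A star marks the 22 genes called in the mean of both breeds, and open symbols mark genes for which the HF or the beef breed channel stood well above background on no array of that comparison, such as *AMPD1*.

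Of the other steps of glycolysis, 9 of 16 genes were tested, and in the mean of both breeds 2 were higher (*ADPGK* and *GAPDH*) and 1 lower (*PKLR*, the pyruvate kinase of liver and red cells). Over all tested probes, 21.4% were higher and 26.2% lower in that mean. *ADPGK*, a glucokinase that uses ADP, had means of 0.49 ± 0.13 in LIM and 0.22 ± 0.14 in HER (limma, adjusted p = 0.00737 and 0.147). The phosphofructokinases beside the muscle form did not pass the test in either breed. *PFKL*, of liver, had means of 0.15 ± 0.32 in LIM and 0.20 ± 0.19 in HER, and *PFKP*, of platelets, -0.15 ± 0.15 and -0.20 ± 0.11. *HK1* and *GPI*, the hexokinase and the glucose phosphate isomerase that open the pathway, did not pass either. *PKM* and *HK2*, the pyruvate kinase and the hexokinase that prevail in muscle, were not matched to a probe.

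Among 11 tested genes that control glycolysis or carry glucose and lactate, 4 were higher and 3 lower in the mean of both breeds. The shares over all probes were 21.4% higher and 26.2% lower. *BSG*, the chaperone of the lactate transporters, had means of 1.63 ± 1.08 in LIM and 1.20 ± 0.50 in HER (limma, adjusted p = 0.0103 and 0.0448). *PFKFB2*, which makes fructose 2,6-bisphosphate, the activator of phosphofructokinase, had means of 1.22 ± 0.42 and 1.13 ± 0.46 (adjusted p = 0.00304 and 0.00838). The other 2 higher genes were *SLC16A7*, a lactate and pyruvate transporter, at 0.61 ± 0.69 in LIM and 0.58 ± 0.40 in HER, and *HIF1A*, the oxygen-regulated activator of glycolytic genes, at 0.69 ± 0.28 and 0.20 ± 0.35. On its own, LIM passed for *HIF1A* (adjusted p = 0.011), and neither breed passed for *SLC16A7*. *SLC2A4*, the glucose transporter of muscle and fat that responds to insulin, was lower on 8 of 8 arrays, with means of -0.68 ± 0.21 in LIM and -1.18 ± 0.25 in HER (adjusted p = 0.00502 and 0.00258). *SLC16A1*, a general lactate transporter, was lower too, with means of -0.83 ± 0.32 and -0.72 ± 0.46 (adjusted p = 0.0103 and 0.0263), and *TIGAR*, which degrades fructose 2,6-bisphosphate, was the third lower gene, at -0.62 ± 0.29 in LIM and -0.25 ± 0.39 in HER (adjusted p = 0.0223 and 0.299).

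Of 7 tested genes for the entry of pyruvate into mitochondria, 2 were higher and 1 lower in the mean of both breeds, where 47.6% of all probes were called. *PDK4*, the kinase that shuts pyruvate dehydrogenase, was lower on 8 of 8 arrays, with means of -0.83 ± 0.14 in LIM and -0.68 ± 0.17 in HER (limma, adjusted p = 0.00111 and 0.00584). *PDHA1*, a subunit of that enzyme, had a mean of 0.21 over both breeds (adjusted p = 0.0317), and *PDP2*, a phosphatase that reopens it, was called on the values of LIM, at 0.94 ± 0.22, beside -0.096 ± 0.22 in HER (adjusted p = 0.00127 and 0.601). For glycogen, 4 of 10 tested genes were higher and 0 lower in limma, with 0 lower at an unadjusted p under 0.05 as well, where 21.4% of all probes were higher and 26.2% lower in the mean of both breeds. *GYG1*, glycogenin, which primes glycogen, had a mean of 1.07 over both breeds and was higher on 8 of 8 arrays (adjusted p = 0.000413). *PYGB*, the brain glycogen phosphorylase, had means of 0.73 ± 0.23 and 0.61 ± 0.17, and *PHKG2*, the liver phosphorylase kinase subunit, 0.66 ± 0.30 and 0.47 ± 0.17. *PGM1*, phosphoglucomutase, was the other higher gene, and neither breed passed on its own (0.53 ± 0.53 and 0.45 ± 0.51). Of 9 tested genes of gluconeogenesis and the neighbouring routes, 2 were called. *FBP1*, the fructose bisphosphatase of liver, stood well above background in the 4 LIM channels and in no HF or HER channel, so that it was at least 1.94-fold higher in LIM and not measured in HER. *PCK1*, which makes phosphoenolpyruvate from oxaloacetate, stood well above background in 0 of the HER channels and in 1 LIM channel. In HF, it did so in 4 channels on the arrays of HER but in 0 on those of LIM, where HF carried the other dye.

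Other genes of these lists with a form particular to muscle did not share one direction. *AMPD1*, the AMP deaminase of muscle, did not stand well above background in any HF channel, and it was at least 8.85-fold higher in LIM and at least 4.10-fold higher in HER. It was admitted to the fit through 4 LIM and 3 HER channels alone, so no p is given. The bound sets the mean of the beef channel against the lowest signal well above background on each array, or the measured HF signal where that was higher. *CKMT2*, the mitochondrial creatine kinase of muscle, had means of 1.71 ± 0.25 in LIM and 0.98 ± 0.53 in HER (limma, adjusted p = 0.00085 and 0.0117). It stood well above background in 4 LIM and 3 HER channels. In HF, it did so in 2 channels on the arrays of LIM and 1 on those of HER. It thus needed the beef channels to pass the filter, and its ratios and p rest largely on dim HF signals. *PYGM*, the glycogen phosphorylase of muscle, had means of 0.069 ± 0.24 and -0.068 ± 0.21, with a 95% interval for the mean of both breeds from -0.21 to 0.21. *PHKG1* (0.28 ± 0.51 and 0.12 ± 0.22), *GYS1* (0.22 ± 0.49 and 0.39 ± 0.37), and *FBP2* (-0.35 ± 0.89 and -0.44 ± 1.09), the muscle forms of phosphorylase kinase, glycogen synthase, and fructose bisphosphatase, did not pass the test in either breed. Of these genes and *SLC2A4*, *CKMT2* was thus higher with the limit given, *SLC2A4* lower, *AMPD1* higher by its bound, and the other 4 not called in the mean of both breeds. *CKM*, the creatine kinase of muscle fibers, was well above background in 3 of 16 channels and was not tested. Of 4 tested genes of creatine kinase and muscle energy, 2 were higher (*AMPD1* and *CKMT2*) and 1 lower (*CKB*) in the mean of both breeds. Over all probes, 21.4% were higher and 26.2% lower. *CKB* had means of -1.42 ± 0.52 in LIM and 0.30 ± 0.30 in HER (limma, adjusted p = 0.00143 and 0.284). *AK1*, an adenylate kinase, had means of -0.72 ± 0.64 and 0.20 ± 0.39 (adjusted p = 0.0459 and 0.57).

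The tested markers of differentiating muscle cells differed from HF in the same direction as *ENO3* and *PGAM2*. Of 14 such genes, 8 were tested, and 8 of 8 were higher in both LIM and HER, where 2920 and 1887 of all 17622 probes were higher. Their median ratios were 3.27 and 2.37. *MYH3*, the embryonic myosin heavy chain, had means of 4.30 ± 0.68 in LIM and 4.05 ± 0.47 in HER (limma, adjusted p = 0.000337 and 0.000653), and *ACTA1*, skeletal actin, 4.74 ± 1.92 and 4.66 ± 1.21. The summed signal of the list ranged from 29479 to 69886 in LIM against 1650.2 to 6843 in HF on the same arrays, and from 6690.2 to 55888 in HER against 708 to 5998 in HF, with no overlap. Of the satellite cell and myoblast markers, 4 of 4 tested were higher in the mean of both breeds, against 21.4% of all probes. In each breed on its own, 3 were higher, among them *DES* and *CDH15*. *MYOD1* did not pass in LIM or in HER (limma, adjusted p = 0.117 and 0.0706). The part of these differences in those of the enzymes was not tested.

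Markers of other cell types differed from HF as well, and for the counts that follow, 21.4% of all probes were higher and 26.2% lower in the mean of both breeds. Of 7 tested fibroblast markers, 5 were higher in the mean of both breeds, with *COL3A1* at 3.00 ± 1.48 in LIM and 2.37 ± 1.26 in HER (limma, adjusted p = 0.00568 and 0.0224), and 2 were lower, with *PDGFRA* at -1.48 ± 0.44 and -1.36 ± 0.47 (adjusted p = 0.00157 and 0.00537). The summed signal of the fibroblast list ranged from 251608 to 552903 in LIM against 49971 to 149534 in HF, and from 180935 to 362147 in HER against 40490.8 to 103541 in HF. Of 4 tested genes of dividing cells, 2 were lower in the mean of both breeds and 0 higher, with 0 higher at an unadjusted p under 0.05 too. Of 3 tested smooth muscle markers, 2 were higher, of 5 tested adipocyte markers 2 were higher and 2 lower, and of 2 tested leukocyte markers 1 was higher, while 0 of 3 endothelial markers were called, with 0 at an unadjusted p under 0.05. *ITGAM*, of macrophages, was not well above background in any channel. The part of these cell types in the values of the enzymes was not tested.

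By Pearson correlation of the ratio over the 8 arrays among 7203 named probes, the genes whose pattern was most like that of *ENO3* were *NKX1-2* (r = 0.953), *CARF* (0.933), *SLC25A31* (0.913), *THUMPD2* (0.912), and *TBCE* (0.912). Those most like *PGAM2* were *MYL3* (r = 0.952), *IL17B* (0.95), *BTG1* (0.938), *RRAD* (0.926), and *MXI1* (0.925). The points of each correlation share their arrays, dyes, and HF reference, and likeness over arrays did not go with likeness in level. The mean ratio over both breeds was 2.18 for *RRAD* and 1.41 for *IL17B*, but -0.059 for *MYL3* and -0.49 for *NKX1-2*. No gene stood on both lists.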

How the data were processed

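Expression was measured in muscle cell cultures of 3 breeds on 8 two-colour arrays, and groups and dyes were taken from the sample labels. The authors deposited the output of Feature Extraction 10.7.3.1 per array, with the intensity of each spot and the log10 of Cy5 over Cy3, for which the software had subtracted background and normalized the dyes. A deposited series table holds the same log10 ratio. It was turned to log2 of beef breed over HF, and spots of a probe were averaged, without controls and spots marked as outliers. Of 21475 probes, 17622 stood well above background in 4 or more of 16 channels and were tested with limma 3.58.1 in R 4.3.3, with a mean for each comparison. P-values were adjusted over all tested probes. Genes were named through RefSeq accessions (assembly ARS-UCD2.0), and the brightest probe stood for a gene. Probe sequences were not used here, so cross-hybridization between isoforms was not checked. The enzymes and lists were chosen with earlier results of these data known, and 1 gene of a list is not reported here. The genes named from lists followed the rule given in the text, at most 4 per pathway list and 3 per marker list. Isoform pairs were compared with an exact sign-flip permutation test. The fitting step was tested on simulated data. Alternatives covered background, centring, scaling, filter, test, array weights, replicate block, and leaving out each array. The number of arrays limits precision.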

Additional observations from a re-analysis of the deposited data

Results flagged for a closer look

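In 7 of 72 groups of 4 arrays, 1 array lay far from the other 3, by a limit that about 1 in 20 independent groups pass by chance. These groups share the same arrays and include genes named for their calls, so their count cannot be set against that rate. *PGAM1* was 0.96 on replicate 4 of LIM and between -0.14 and -0.056 on the others. *PGAM2* was 1.86 on replicate 1 of HER and between 2.94 and 3.02 on the others. *GAPDH* was 0.32 on replicate 3 of LIM, against 0.12 to 0.13. *BSG* was 0.0036 on replicate 4 of LIM, against 2.13 to 2.24. *SLC2A4* was -1.55 on replicate 4 of HER, against -1.10 to -1.02. *MYH3* was 3.27 on replicate 2 of LIM, against 4.61 to 4.69. *COL1A1*, a fibroblast collagen, was 1.05 on replicate 4 of HER, against 2.64 to 2.80. All values are log2 ratios of the beef breed over HF.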

How the results depend on the processing

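In the mean of both beef breeds, *ENO3*, *PGAM2*, and *ALDOA* were called under every alternative run, joined by *PGK1* with marked backgrounds replaced, with no background subtraction, with array weights, or without replicate 4 of LIM (adjusted p from 0.0378 to 0.0469), and no called value changed sign. Of the values for single genes under alternatives, 694 kept their side of the threshold, 21 lost and 9 gained it. Part of the 694 could hardly change. The series table, used as 1 alternative, holds the same ratios, and leaving out an array of 1 breed keeps the mean of the other. For LIM, the 3 called enzymes fell to 1 with the methods' t-test after Benjamini-Hochberg adjustment, and the probes called went from 6330 to 1078, or to between 3796 (without replicate 3 of LIM) and 7271 when an array was left out. For HER, 0 enzymes and 0 probes were called with normexp background correction and loess, and 0 enzymes and 2 probes with the methods' t-test after adjustment. At the methods' own threshold without adjustment, that test called 3 enzymes in either breed and 5070 probes in LIM and 4822 in HER. Leaving out an array gave 2 to 4 enzymes and 1527 to 5977 called probes in HER, against 4473 with all arrays. There were 1527 without replicate 2 of HER, 1576 without replicate 1, and 2667 without replicate 3. For LIM minus HER, the 41 probes became 0 with normexp and loess, 1 with marked backgrounds replaced or with no background subtraction, 15 with scaling between arrays, 76 with no filter, 0 with all channels required, 256 with array weights, 1 to 14 with an array left out, and 2480 unadjusted at a fold of 1.3, with 0 enzymes each time. Same-numbered arrays of both comparisons deviated together with r = -0.24, 0.13, 0.30, and 0.54, and only replicate 4 matched its own number best, so the numbers were not taken as pairs. With the replicate block, 147 probes differed between LIM and HER, the enzyme counts were unchanged, and *GAPDH* lost its call (adjusted p = 0.0542). *PGAM2* minus *PGAM1* was above 0 on all arrays under each alternative, and its mean ranged from 1.40 with normexp to 2.72 without replicate 2 of LIM. Averaging probes of a gene applied to *GAPDH* alone among the genes of the main comparison (adjusted p = 0.053). The pair *ENO3* and *ENO1* could not be computed.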
